A study of Homo sapiens with 4 samples.

Results

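The messages of 9 intermediate filament and nuclear lamin genes were followed in NCC-IT-A3, a line of embryonal carcinoma, that is, of malignant germ cells that resemble cells of the early embryo. The genes are the keratins KRT7, KRT8, KRT18 and KRT19, vimentin (VIM), nestin (NES) and the lamin genes LMNA, LMNB1 and LMNB2. They were taken by name and make up 9 of the 27685 gene IDs in the files, and 8 of them reached the level needed for a test. One group of 2 libraries came from cells kept for 4 days with 100 nM barasertib, which inhibits the mitotic kinase Aurora B, and the other group of 2 came from cells given the solvent DMSO. Both groups are the same line in RPMI medium with 10% serum, and neither carries a further allele or agent according to the labels. Levels are in TPM, transcripts scaled for length and to the same total in each library, so levels of different genes can be set side by side. The aligned bases behind the values, estimated from the highest ratio of coverage to FPKM among the gene rows, came to 4.22 to 4.59 Gb per library. The labels leave unsaid whether replicates were grown as separate cultures. P-values therefore cover only the spread between these libraries, which may be technical.

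Intermediate filaments are rope-like polymers that give cells and nuclei mechanical strength. Keratins pair a type I with a type II chain, and KRT18 with KRT8 is the pair of simple epithelia and of the first epithelium of the embryo. Vimentin, of type III, is the filament of mesenchymal and many cultured cells, and nestin, a long chain of type VI by some classifications and type IV by others, copolymerises with it in progenitor cells. Lamins line the inside of the nuclear envelope: LMNA gives the A-type lamins A and C, which are sparse in pluripotent cells, while LMNB1 and LMNB2 give the farnesylated B-type lamins. Mitotic kinases, Aurora B among them, phosphorylate vimentin and related filaments so that they come apart when a cell divides.

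All 8 tested genes changed, 6 upward (NES, KRT8, KRT18, LMNA, LMNB2 and LMNB1) and 2 downward (VIM and KRT19), by limma on log2(TPM + 1) with Benjamini-Hochberg adjusted p under 0.05. Over all 13938 tested genes 22% passed upward and 7.44% downward, 29.5% in all. The libraries of the 2 groups did not overlap for any of the 8, as was the case for 68.8% of all tested genes, 49.1% upward and 19.7% downward. The median log2 change of the 8 was 0.46, beside 0.11 over all tested genes. Of all calls in TPM, 74.8% were upward, against 44.8% after median-of-ratios scaling and 50.9% after quantile normalization, which move the median change of all genes by -0.12 and -0.12. Under both of these scalings NES, KRT8, KRT18, LMNA and LMNB2 still passed upward and KRT19 downward. LMNB1 passed under neither, and VIM passed downward after median-of-ratios scaling but not after quantile normalization. That leaves 7 of 8 called with median-of-ratios factors, where 24.6% of all tested genes were called (11% upward, 13.6% downward). It leaves 6 of 8 after quantile normalization, where 23.2% were called (11.8% upward, 11.4% downward). In all, 10% of the tested genes passed upward and 7.05% downward under all 3 scalings. TPM are shares of a library's messages, so the amount per cell was not measured, and fewer cells with a message cannot be told apart from less of it per cell. Means below are given ± SD with n = 2 libraries per group, and changes compare log2(TPM + 1), where the added 1 shrinks the change of genes at low levels.

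**Figure D1:**
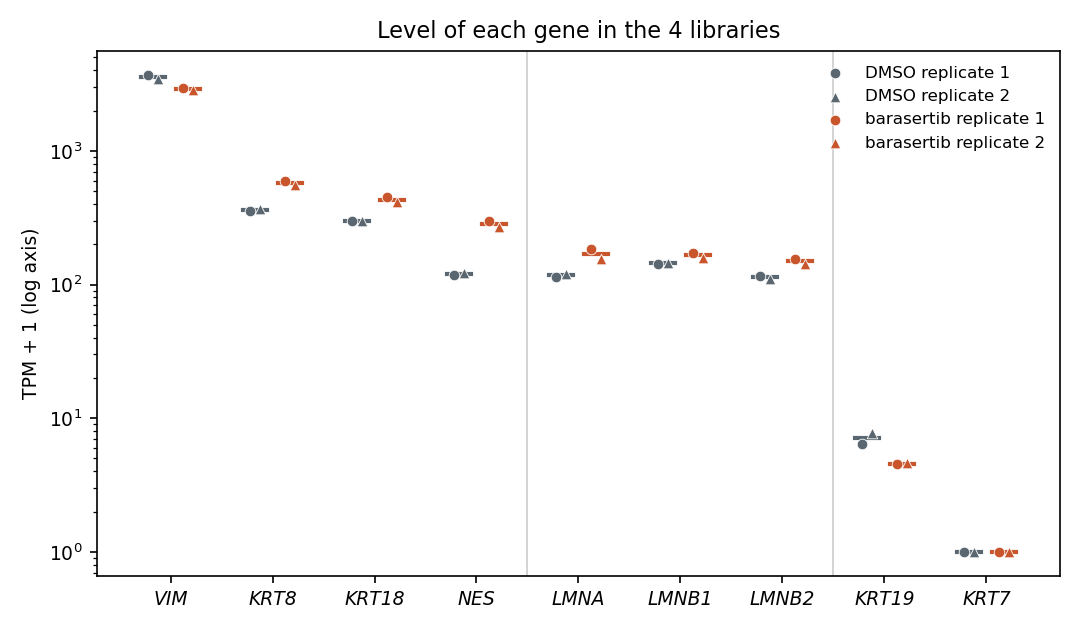
Level of the 9 genes in each library, as TPM + 1 on a log axis, with grey points for DMSO, orange points for barasertib, circles and triangles for replicates 1 and 2, and a bar at each group's mean. VIM lies highest at 2842 to 3721 TPM, KRT19 lies at 3.51 to 6.78 TPM, and KRT7 is listed at 0 in all 4 libraries.

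Among the keratins, the simple-epithelial pair rose and the 2 other keratins were at or near the floor. KRT8, the type II partner (gene ID 3856, hg19 chromosome 12 from 53290971 to 53343650), stood at 354 and 367 TPM with DMSO and at 589 and 551 TPM with barasertib. Both treated libraries lay above both controls, and the mean rose from 360.4 ± 9.11 to 570.1 ± 27.1 TPM, a log2 change of 0.66 (SE 0.05, limma adjusted p = 0.00071). KRT18, the type I partner (gene ID 3875, chromosome 12 from 53342655 to 53346685), stood at 299 and 298 TPM with DMSO and at 449 and 412 TPM with barasertib. Again the groups were apart, with means of 298.6 ± 1.11 and 430.6 ± 26.6 TPM and a log2 change of 0.53 (SE 0.05, limma adjusted p = 0.00168). Each call held in all 15 alternative settings.

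KRT8 was more abundant than KRT18 in every library. The ratio of KRT8 to KRT18 TPM was 1.18 and 1.23 with DMSO and 1.31 and 1.34 with barasertib, a difference of 0.13 on the log2 scale. A factor common to all genes of a library, as in median-of-ratios scaling, leaves this ratio as it is. Quantile normalization does not: there KRT8 changed by 0.68 and KRT18 by 0.45. The groups of the TPM ratio did not overlap, but an exact two-sided permutation test of 2 libraries against 2 cannot go below the p of 0.33 found here, so an unequal rise of the partners was not established. The pair made up 96.2% of all keratin TPM in both DMSO libraries and 97.3% and 97.5% in the barasertib libraries.

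KRT19, a type I keratin without a tail domain (gene ID 3880, chromosome 17 from 39679869 to 39684641), went the other way. It stood at 5.46 and 6.78 TPM with DMSO and at 3.51 and 3.62 TPM with barasertib, at a coverage of 6.99 to 13.2 reads per base. Both treated libraries were lower, and the mean fell from 6.12 ± 0.933 to 3.57 ± 0.0723 TPM, a log2 change of -0.63 (SE 0.13, limma adjusted p = 0.0183). The KRT19 call was lost without barasertib replicate 1 (limma adjusted p = 0.0826), barasertib replicate 2 (0.0739) or DMSO replicate 2 (0.0781) and without the filter on low values (0.0551), in a range of 0.00985 to 0.0826 over its 14 alternatives. With a pseudocount of 5 its log2 change was -0.37. KRT7, the type II keratin of ducts and trophoblast (gene ID 3855, chromosome 12 from 52626954 to 52642709), was listed at 0 TPM in all 4 libraries and was not tested.

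Reads that keratin genes share with their copies cannot be followed in these files. RefSeq names 125 pseudogenes of KRT8, KRT18 and KRT19, of which the files list 3, at a sum of at most 0.0798 TPM in any library. In the files' hg19 coordinates KRT8 and KRT18 lie on opposite strands and overlap over 996 bases. The kit marks strand, but no source used here says whether StringTie was told so. The levels of both partners are therefore uncertain by what the overlap and the copies contribute.

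Vimentin fell and nestin rose, in the same libraries and from very different levels. VIM (gene ID 7431, chromosome 10 from 17270258 to 17279592) stood at 3721 and 3465 TPM with DMSO and at 2942 and 2842 TPM with barasertib. It ranked between position 32 and 38 of all gene IDs in every library. Both treated libraries were lower, and the mean fell from 3593 ± 181 to 2892 ± 71.3 TPM, a log2 change of -0.31 (SE 0.04, limma adjusted p = 0.00446). After quantile normalization the VIM change was -0.09 (limma adjusted p = 0.0934, the highest of a range that starts at 0.000721), against -0.45 with median-of-ratios factors. The antisense gene VIM-AS1, which overlaps VIM over 1727 bases on the opposite strand, was at 8.60 to 12.2 TPM and fell as well, by 0.38 on the log2 scale (limma adjusted p = 0.0236). As for KRT8 and KRT18, the use of strand by StringTie is unknown, so reads of VIM may be counted for VIM-AS1. Its fall cannot be taken as separate from that of VIM, and only its TPM fit is given.

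NES (gene ID 10763, chromosome 1 from 156638556 to 156647189) showed the largest change of the set. It stood at 117 and 121 TPM with DMSO and at 299.7 and 269.6 TPM with barasertib, so that even the lower treated library was more than both controls together. The log2 change was 1.24 (SE 0.06, 95% interval 1.09 to 1.40, limma adjusted p = 0.000307), 2.37-fold, and 141 of the 13938 tested genes had a larger rise. The call held in all 15 alternative settings, with changes of 1.11 to 1.32. For each 100 TPM of VIM there were 3.15 and 3.51 TPM of NES with DMSO and 10.2 and 9.49 TPM with barasertib.

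The 250 bases upstream of the NES and VIM starts are shown because these genes moved in opposite directions. They are from RefSeq (GRCh38.p14), 5′ to 3′ on the gene's strand, and end just before the transcript start. Capitals mark every match, on either strand, to 7 short motifs. These are TATAAA of the TATA box, CCAAT of the CCAAT box, GGGCGG of the GC box, TGANTCA of AP-1 sites, GCCNNNGGC of AP-2 sites, TTTGAA of TCF and LEF sites and GGAATG of TEAD sites.
NES, chr1:156677408-156677657, minus strand: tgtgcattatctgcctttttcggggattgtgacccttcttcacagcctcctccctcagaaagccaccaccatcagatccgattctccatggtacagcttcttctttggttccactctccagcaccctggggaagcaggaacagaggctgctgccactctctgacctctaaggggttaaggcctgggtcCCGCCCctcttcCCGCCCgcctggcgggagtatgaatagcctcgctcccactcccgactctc
VIM, chr10:17227991-17228240, plus strand: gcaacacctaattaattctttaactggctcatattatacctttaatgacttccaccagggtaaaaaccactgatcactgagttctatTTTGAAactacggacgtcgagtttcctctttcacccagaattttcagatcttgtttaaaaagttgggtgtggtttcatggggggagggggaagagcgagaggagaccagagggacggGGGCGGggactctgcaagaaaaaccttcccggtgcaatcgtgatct
NES held GGGCGG, the GC box, at 62 and 50 bases before the start, and VIM held it at 46. VIM also held TTTGAA at 163 bases before the start. GGGCGG was found in 42.6% and TTTGAA in 13.3% of the 35116 promoters in the table at this length. Both windows held 8 CpG dinucleotides, with a median of 11 over the table. No match of the other 5 motifs was found in these letters. Over the table TATAAA was in 10.7%, CCAAT in 32.0%, TGANTCA in 6.57%, GCCNNNGGC in 19.8% and GGAATG in 11.9% of the promoters. These matches are descriptions of sequence, and binding was not measured.

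The make-up of the cytoplasmic filament messages in TPM differed between these libraries. VIM made up 81.4% and 80.0% of the summed TPM of all cytoplasmic filament genes with DMSO, and 66.8% and 67.9% with barasertib. KRT8 and KRT18 together went from 14.3% and 15.4% to 23.6% and 23.0%, and NES from 2.57% and 2.81% to 6.80% and 6.44%. The groups stood apart in each of these TPM shares, which median-of-ratios scaling leaves as they are. The shares were not tested, and an exact two-sided permutation test of 2 libraries against 2 cannot go below p = 0.33. A shift in make-up was therefore not established. Quantile normalization alters them, since it moves VIM from -0.31 to -0.09 and KRT8 only from 0.66 to 0.68. The sum itself was 4570 and 4329 TPM with DMSO and 4405 and 4188 TPM with barasertib, so its groups overlapped. Vimentin outweighed the keratin pair 5.70 and 5.21 times with DMSO, and 2.83 and 2.95 times with barasertib.

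**Figure D2:**
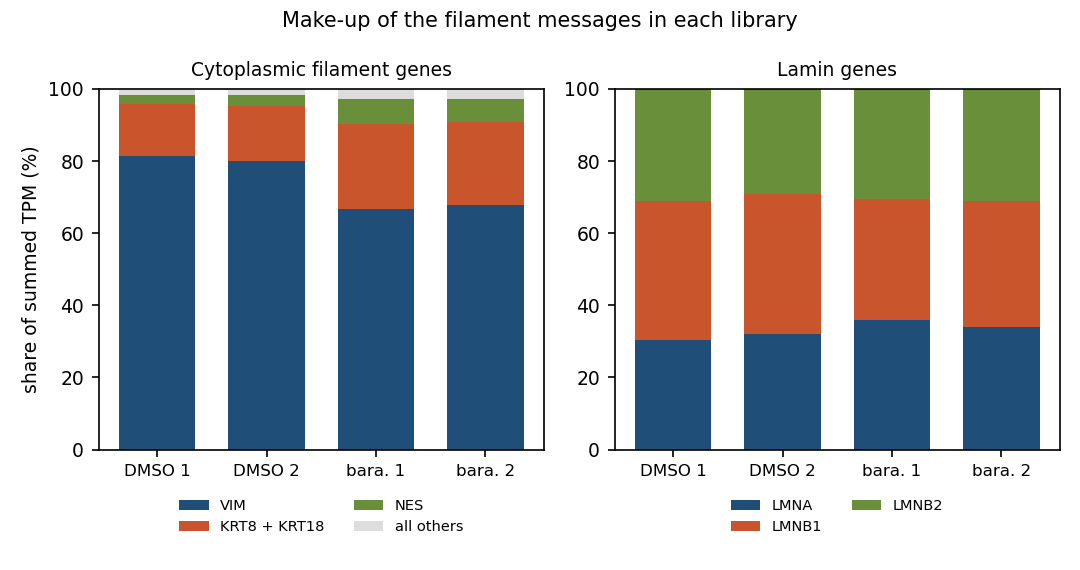
Share of summed TPM in each library, in percent, for the cytoplasmic filament genes (left) and the lamin genes (right). In the left panel VIM shrinks from 80.0% or more in the DMSO libraries to 67.9% or less in the barasertib libraries, while in the right panel LMNA goes from 30.4% and 32.1% to 36.0% and 34.0%.

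All 3 lamin genes were higher with barasertib, LMNA by the widest margin. LMNA (gene ID 4000, chromosome 1 from 156052337 to 156109880) stood at 112 and 120 TPM with DMSO and at 184 and 154 TPM with barasertib. The treated libraries differed from each other more than the controls did but lay above both, with means of 115.9 ± 5.28 and 168.8 ± 21.3 TPM and a log2 change of 0.53 (SE 0.09, limma adjusted p = 0.00866). That call held in all 15 alternatives, where the change ran from 0.40 to 0.66. Since the files sum all LMNA transcripts, lamin A and lamin C messages are not separated.

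LMNB2 (gene ID 84823, chromosome 19 from 2428163 to 2456966) stood at 115 and 109 TPM with DMSO and at 155 and 140.4 TPM with barasertib. Its groups were apart, and the log2 change was 0.40 (SE 0.06, limma adjusted p = 0.00803), 0.26 after median-of-ratios scaling (limma adjusted p = 0.0364, in a range of 0.00204 to 0.0417). LMNB1 (gene ID 4001, chromosome 5 from 126112315 to 126172712) stood at 142 and 144 TPM with DMSO and at 171 and 158 TPM with barasertib. Its rise was the smallest of the set, 0.20 on the log2 scale (SE 0.05, limma adjusted p = 0.0398), and passed in 7 of 15 alternatives. The LMNB1 change was 0.06 after median-of-ratios scaling (limma adjusted p = 0.433) and 0.09 after quantile normalization (0.276). The call was also lost without barasertib replicate 1 (0.129), DMSO replicate 1 (0.124) or DMSO replicate 2 (0.0964), in a range of 0.0245 to 0.433 over its alternatives.

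Within the lamins, the A-type share of summed lamin TPM was 30.4% and 32.1% with DMSO and 36.0% and 34.0% with barasertib, a difference of 3.78 percentage points. The part of LMNB1 in the B-type lamins was 55.3% and 56.9% with DMSO and 52.4% and 52.9% with barasertib. In both TPM measures, which median-of-ratios scaling leaves as they are, the groups did not overlap. Each gave p = 0.33 by an exact two-sided permutation test, the smallest that 2 libraries against 2 allow, so a shift among the lamins was not established. With any 1 library left out, the A-type difference was between 2.77 and 4.78 points and the LMNB1 difference between -4.25 and -2.64 points. Lamin messages in sum were at 369 and 373 TPM with DMSO and at 510.3 and 452 TPM with barasertib.

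The same window is shown for the pair of B-type lamin genes, whose calls differed in firmness, with capitals as above.
LMNB1, chr5:126776886-126777135, plus strand: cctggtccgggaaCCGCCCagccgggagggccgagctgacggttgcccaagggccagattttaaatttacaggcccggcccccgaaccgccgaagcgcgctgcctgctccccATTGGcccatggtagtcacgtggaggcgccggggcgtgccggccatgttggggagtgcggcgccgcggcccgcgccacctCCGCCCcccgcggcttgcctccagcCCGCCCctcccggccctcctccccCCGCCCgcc
LMNB2, chr19:2456960-2457209, minus strand: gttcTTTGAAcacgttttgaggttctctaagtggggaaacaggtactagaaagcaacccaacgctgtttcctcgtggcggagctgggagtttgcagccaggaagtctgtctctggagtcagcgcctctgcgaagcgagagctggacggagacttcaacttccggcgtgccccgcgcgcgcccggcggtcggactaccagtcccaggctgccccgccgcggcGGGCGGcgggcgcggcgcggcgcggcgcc
The LMNB1 window belongs to the downstream of its 2 entries in the table. It held GGGCGG at 237, 58, 33 and 9 bases before the start and CCAAT at 138, the CCAAT box. LMNB2 held GGGCGG at 29 and TTTGAA at 246. The windows held 29 and 30 CpG dinucleotides, more than in 85.9% and 87.6% of the table's promoters, where NES and VIM each exceeded 43.7%. The upstream LMNB1 entry, not shown, held 10 CpG dinucleotides, more than in 47.8% of the promoters. It held no match of the 7 motifs. RefSeq entries were matched for 6 of the 9 genes, and KRT7, KRT18 and KRT19 were not matched.

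**Figure D3:**
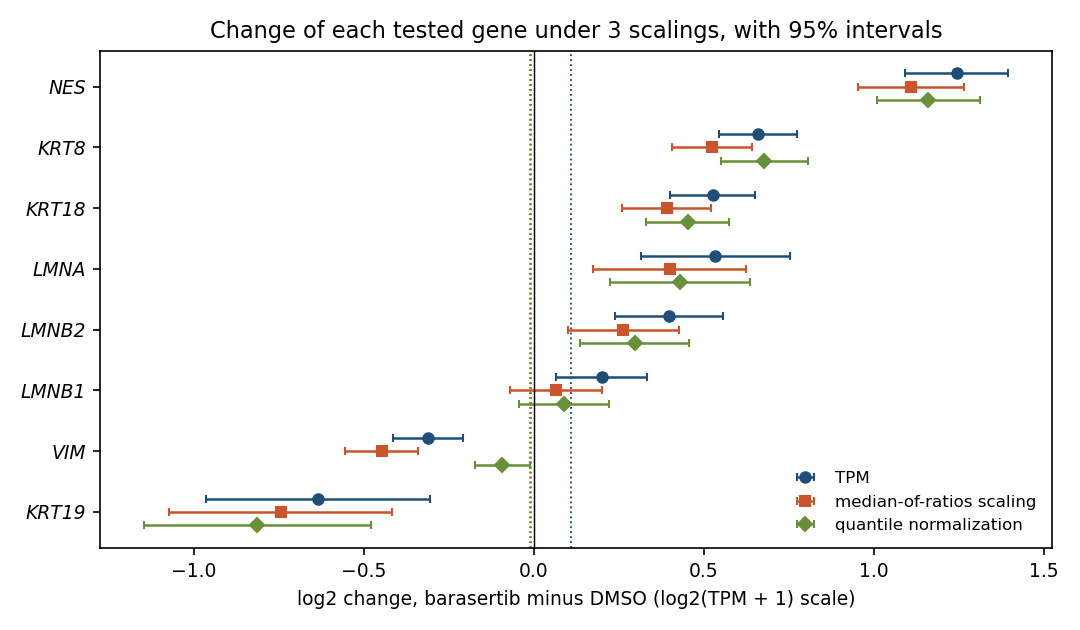
Log2 change from DMSO to barasertib for the 8 tested genes with 95% intervals, in TPM (blue), after median-of-ratios scaling (orange) and after quantile normalization (green), with dotted lines at the median of all tested genes for each. NES lies farthest to the right at 1.11 to 1.24, LMNB1 reaches 0.06 and 0.09 after rescaling, and VIM lies at -0.45 to -0.09.

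Some of these genes are neighbours in hg19. KRT7, KRT8 and KRT18 lie on chromosome 12, with 648 kb between KRT7, listed at 0, and KRT8. LMNA and NES lie on chromosome 1 with 529 kb between them, and both rose. In GENCODE release 29 the main NES transcript has 4 exons and 5558 bases, while that of LMNA has 12 exons and 3190 bases, and 10 coding transcripts are annotated for LMNA against 1 for NES.

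The other filament genes were mostly listed at 0 or low. Of 69 intermediate filament genes in all, 45 were listed at 0 in every library, 54 had a mean under 1 TPM and 15 were tested. In TPM 10 of the 15 rose and 2 fell. These counts include the 8 tested genes described above, with 6 of the rises and the 2 falls. After median-of-ratios scaling 7 rose and 2 fell, and after quantile normalization 7 rose and 1 fell. The upward and downward shares of all tested genes were 22% and 7.44% in TPM. They were 11% and 13.6% after median-of-ratios scaling and 11.8% and 11.4% after quantile normalization. The 9 genes described here held 98.5% of the summed filament TPM in both DMSO libraries and 97.5% and 97.6% with barasertib. Of 50 other keratins only KRT10 was tested. Its mean of 19.6 ± 0.776 TPM in the controls and 23.3 ± 2.89 TPM in the treated libraries did not differ beyond the spread (limma adjusted p = 0.127). Among 10 other type III, type IV and lens filament genes, 6 were tested and 4 rose. DES (desmin, the filament of muscle and a type III relative of vimentin) stood at 18.7 and 17.8 TPM with DMSO and at 44.6 and 42.9 TPM with barasertib, a log2 change of 1.21 (limma adjusted p = 0.00034). INA (internexin, a neuronal type IV filament) rose from 4.18 ± 0.339 to 9.13 ± 0.238 TPM, a log2 change of 0.97 (limma adjusted p = 0.00233) and of 0.62 with a pseudocount of 5. PRPH (peripherin) went from 6.67 ± 0.859 to 10.4 ± 1.25 TPM and NEFH (the heavy neurofilament chain) from 17.6 ± 0.267 to 22.5 ± 1.46 TPM (limma adjusted p of 0.0223 and 0.0241). Those last 2 calls were lost under both other scalings (limma adjusted p of 0.0547 and 0.0651 for PRPH and 0.109 and 0.0785 for NEFH). Leaving out barasertib replicate 1 (0.11) or DMSO replicate 2 (0.0693) also ended the PRPH call. For NEFH this was so for barasertib replicate 1 (0.0975), DMSO replicate 1 (0.0851) and DMSO replicate 2 (0.0648).

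Among the plakin and desmosome genes, 1 rose and 2 fell in TPM, where 22% and 7.44% of all tested genes did. DSP (desmoplakin), the plakin that links keratins to desmosomes, stood at 71.8 and 72.1 TPM with DMSO and at 51.0 and 54.5 TPM with barasertib, and fell by 0.44 on the log2 scale (limma adjusted p = 0.00424, called in all 15 alternatives). DSP therefore moved against KRT8 and KRT18. Of 6 tested plakins MACF1 also passed, upward at 0.22 (limma adjusted p = 0.0462), a call lost under both other scalings and without any 1 of the 4 libraries (0.0743 to 0.160). Of 6 tested desmosome genes DSC2, a desmosomal cadherin, fell by 0.36 (limma adjusted p = 0.0249), a call that ended when either barasertib library or DMSO replicate 2 was left out (0.0798 to 0.112). The median changes of the plakin and desmosome lists were 0.07 and -0.07, beside 0.11 for all tested genes. Under each of the other scalings 0 plakins rose and 2 fell. Of the desmosome genes 0 rose, while 2 fell after median-of-ratios scaling and 1 after quantile normalization. All-gene shares there were 11% upward and 13.6% downward, and 11.8% and 11.4%. PLEC, a plakin named after its values were seen, passed downward under both (limma adjusted p of 0.0227 and 0.0352) but not in TPM (0.066).

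Among 11 tested partners of lamins in the inner nuclear membrane and its links to the cytoskeleton, 3 rose and 0 fell, with a list median of 0.06, beside 22% and 7.44% of all tested genes. SUN2, which spans the inner membrane and binds lamins, stood at 4.29 and 5.08 TPM with DMSO and at 9.44 and 8.72 TPM with barasertib, a log2 change of 0.83 (limma adjusted p = 0.00514, called in all 15 alternatives) and of 0.54 with a pseudocount of 5. Its paralog SUN1, named after its values were seen, was at 80.2 ± 0.818 and 82.8 ± 1.10 TPM (limma adjusted p = 0.541). TMPO (lamina-associated polypeptide 2) rose by 0.27 and BANF1, which bridges lamina and chromatin, by 0.24, but both were lost after median-of-ratios scaling (limma adjusted p of 0.160 and 0.107). Leaving out either barasertib library or DMSO replicate 1 also ended the TMPO call (0.0796 to 0.106). Of the 5 enzymes that farnesylate and trim proteins such as the B-type lamins, RCE1 rose by 0.22 (limma adjusted p = 0.0366), a call lost under both other scalings and without any 1 library (0.0821 to 0.131). Another of the 5, ICMT, named after its values were seen, passed downward under both other scalings (limma adjusted p of 0.0307 and 0.0464) but not in TPM (0.394). Taking the 35 tested genes of the related lists, 9 rose and 2 fell in TPM, against 3 and 5 after median-of-ratios scaling and 4 and 4 after quantile normalization. For all tested genes the shares were 22% and 7.44% in TPM, 11% and 13.6% after median-of-ratios scaling and 11.8% and 11.4% after quantile normalization, so these counts do not set the lists apart.

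**Figure D4:**
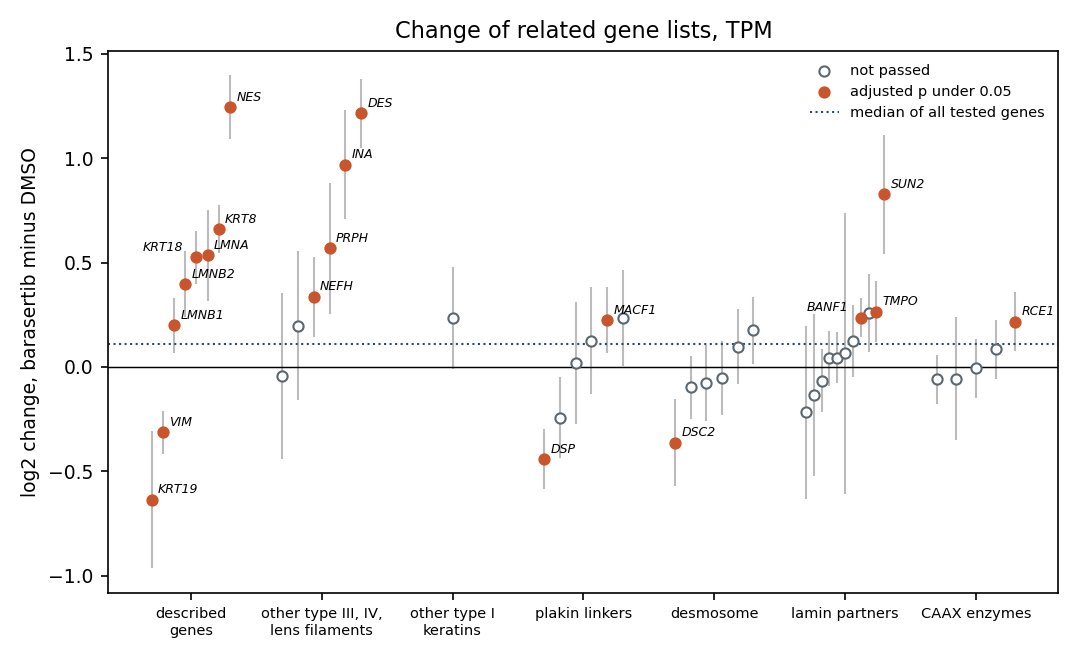
Log2 change from DMSO to barasertib in TPM for each tested gene of the set and of the related lists, with grey 95% intervals, filled points for adjusted p under 0.05 and open points for the rest, and a dotted line at the median of all tested genes. DES at 1.21 lies beside NES at 1.24, and DSP at -0.44 lies opposite KRT8 and KRT18.

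Markers of cell types that these filaments are used to identify were set beside them. The embryonal carcinoma list was detected in full, 11 of 11 above a mean of 1 TPM, at a sum of 6799 to 6940 TPM with DMSO and 7441 to 7728 TPM with barasertib. In TPM 5 of them rose (DNMT3B, NANOG, DPPA4, LIN28A and POU5F1) and 2 fell (SOX2 and CRIPTO), against 2 and 3 after median-of-ratios scaling and 4 and 2 after quantile normalization. For this list and those below, the shares of all tested genes that rose and fell were 22% and 7.44% in TPM. They were 11% and 13.6% after median-of-ratios scaling and 11.8% and 11.4% after quantile normalization. No marker list was tested against these shares. DNMT3B and NANOG rose and SOX2 and CRIPTO fell under all 3 scalings. The DPPA4 call, at a change of 1.12 (limma adjusted p = 0.039), was lost under both other scalings (0.0655 and 0.0602). DPPA4 stood at 90.4 and 188 TPM with DMSO and at 277 and 293 TPM with barasertib, so its controls lay far apart. In the simple epithelium list without keratins 6 of 8 were tested, and 1 rose and 2 fell in TPM, against 1 and 4 under each of the other scalings. E-cadherin (CDH1) changed by -1.35 and the splicing factor gene ESRP1 by -1.65 on the log2 scale (limma adjusted p of 0.000465 and 0.00034), both named after their values were seen, while KRT8 and KRT18 rose. The list's sum was 263 to 274 TPM with DMSO and 276 to 286 TPM with barasertib, most of it CLDN6. CLDN6 was the gene of the list that rose, by 0.34 (limma adjusted p = 0.00503), and it passed under all 3 scalings. EPCAM changed by -0.10 (limma adjusted p = 0.29). Fibroblast and mesenchyme markers without vimentin summed to 16.8 and 18.8 TPM with DMSO and to 34.9 and 38.1 TPM with barasertib. Of 4 tested, 3 rose in TPM, where VIM fell, and 2 rose under each of the other scalings. The call lost under both was that of PDGFRA (limma adjusted p of 0.0558 and 0.0679). COL1A2 and DCN were at or near 0. Neural progenitor markers without nestin summed to 15.6 and 16.3 TPM with DMSO and to 20.6 and 21.2 TPM with barasertib, with PAX6 at 0.0372 TPM or less in every library, and 1 of 3 tested rose. Trophoblast markers summed to 2.17 and 3.27 TPM with DMSO and to 8.74 and 10.7 TPM with barasertib, with 5 of 11 listed at 0. Of 2 tested PGF (placental growth factor) rose by 1.62 on the log2 scale (limma adjusted p = 0.00764), under all 3 scalings, but not without barasertib replicate 2 (0.0615). HLA-G was listed at 0 in both DMSO libraries and was at 1.68 and 1.84 TPM with barasertib, too low for a test. These genes, CLDN6, EPCAM, PDGFRA and the embryonal carcinoma genes above were named after their values were seen. Endoderm markers summed to 0.538 and 0.792 TPM with DMSO and to 2.02 and 1.25 TPM with barasertib, with 0 of 8 at the level needed for a test. The part of any such cells in the filament results was not tested.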

How the data were processed

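Polyadenylated RNA of NCC-IT-A3 was sequenced in 4 libraries, with stranded libraries per the labels' protocols. The submitters' processing notes name HISAT2, StringTie and hg19, without versions or options. The deposited files give coverage (mean depth per base, used as a signal of depth), FPKM and TPM for each gene row, per the file headers, and no read counts. Rows were summed per gene ID, and each of the 9 genes had 1 row per library. RefSeq (GRCh38.p14, names and promoters only) matched 27559 of 27685 IDs.

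limma 3.58.1 (R 4.3.3) was fitted to log2(TPM + 1) of genes averaging 1 TPM or more. Its model held the group alone, with a mean-variance trend, two-sided p and Benjamini-Hochberg adjustment over all 13938 genes, threshold 0.05. The fit was tested on simulated data with independent noise, far fewer changed genes than were called here and no shift common to a library. That test does not cover the dependence on scaling described above. Median-of-ratios factors came from genes above 0 in every library. Ratios within a library were compared by exact permutation.

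The members and lists were chosen with earlier results of these data known. Named beside the 9 genes are, per related list, up to 4 called genes with the largest change, or else the one with the smallest p. Alternatives were other filters, pseudocounts and scalings, FPKM, other variance models, the highest row per ID, the replicate number as a term, and leaving out each library. One marker, ERVW-1, was not matched. Protein features planned for these genes were not analysed here. Python 3.11.15 was used for tables and plots.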

Additional observations from a re-analysis of the deposited data

How the results depend on the processing

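Over 119 values of the 8 tested genes under alternative settings none changed direction, and 13 lost the call: 8 for LMNB1, 4 for KRT19 and 1 for VIM, with values given above. Members lower were 1 in place of 2 without the filter, with a mean of at least 5 TPM (where KRT19 is not tested) and after quantile normalization, and 1 to 2 with a library left out, while members higher were 5 to 6. Genes of the related lists that rose numbered 9, but 3 after median-of-ratios scaling, 4 after quantile normalization, 5 without the mean-variance trend and 4 to 6 with a library left out. Those that fell numbered 2, but 5 and 4 after these scalings, 1 without the filter or the trend and 1 to 2 with a library left out. Over all genes 3071 rose and 1037 fell in TPM, 1534 and 1891 after median-of-ratios scaling, 1649 and 1590 after quantile normalization, and 674 fell without the trend. With a library left out 1365 to 2181 rose and 601 to 699 fell, fewest without barasertib replicate 1 (1365 and 601) and replicate 2 (1598 and 662). The KRT8 to KRT18 difference was 0.10 to 0.16 with a library left out.

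Libraries with the same replicate number did not deviate together (correlation of deviations 0.02 over genes), so the numbers were not taken as pairs. With the replicate block 3218 genes rose and 1080 fell, 6 and 2 of the 8 members passed upward and downward, and of the related genes only MACF1 lost its call (limma adjusted p = 0.052). With 2 libraries per group and no counts in the files, counting error behind low values such as KRT19 is unknown.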

Other observations

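LBR and PODXL differed more between the barasertib replicates than between the group means. LBR, the lamin B receptor, was at 53.7 and 37.9 TPM with DMSO and at 35.5 and 62.7 TPM with barasertib. Its group means of 45.8 ± 11.2 and 49.1 ± 19.2 TPM did not differ beyond that spread (limma adjusted p = 0.878). Of the embryonal carcinoma markers, PODXL was at 320.1 and 326 TPM with DMSO and at 506 and 167 TPM with barasertib (limma adjusted p = 0.825). Both genes were chosen for this text with their values in view. The cause of the spread was not tested. The epithelial transcription factor gene GRHL2, chosen in the same way, was at 1.28 and 1.53 TPM with DMSO and at 0.0288 and 0.0589 TPM with barasertib, under the level needed for a test.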
